A study of Mus musculus with 6 samples.

Results

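Transcripts of 7 transcription factors that carry the hepatic circadian clock to its output genes were compared between IR mice given insulin and IR mice given the bovine serum albumin (BSA) vehicle. The 7 genes, Dbp, Tef, Hlf, Nfil3, Bhlhe40, Bhlhe41 and Ciart, were found by symbol among the 54532 genes of the count table, and all 7 passed the filter on low counts that left 13377 genes for testing. The rule that listed them used their names and no measured value. All 6 mice were male C57BL/6J animals. They had been made insulin resistant (IR) by a high-fat diet (HFD) for 6 weeks from 8 weeks of age. After a 16 h fast, the IR insulin group (n = 3) received insulin at 0.75 units per kg intraperitoneally and the IR vehicle group (n = 3) received BSA, and livers were taken 6 h later. No chow-fed mice entered the comparison, so the diet and the long fast were shared by both groups. The time of day at which livers were taken is not given in the sources used here.

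The circadian clock of hepatocytes is a feedback loop in which the activators CLOCK and BMAL1 bind E-box sites in DNA and drive their own repressors, the PER and CRY proteins, together with the nuclear receptors REV-ERBα and REV-ERBβ. Output factors sit below this loop. The PAR bZIP proteins DBP, TEF and HLF activate genes of drug, lipid and amino acid metabolism through D-box sites, and NFIL3 (E4BP4) binds the same sites as a repressor. BHLHE40 and BHLHE41 (DEC1 and DEC2) and CIART (CHRONO) feed back on CLOCK and BMAL1 as repressors. In liver, feeding and fasting set the phase of this system, and insulin is one of the known cues.

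The E-box and the element bound by ROR and REV-ERB receptors are sites through which the loop is known to act on its target genes, and both were looked for in the promoters of these genes. RefSeq promoters (GRCm38.p6, 250 bases before to 50 after a start site) were matched for 6 of the 7 genes, with 2 start sites for Tef. The letters CACGTG, which read the same on both strands, stood in the promoters of Ciart, Bhlhe41 and Tef and in 7.15% of all 32851 promoters. Ciart held 3 copies, starting 116, 58 and 44 bases upstream of its start site, and 3 or more copies stood in 0.0883% of all promoters (29 promoters). In the Dbp window (chr7:45704997-45705296, plus strand) the letters did not occur. Bases outside these windows, introns included, were not searched, so absence here does not show that a gene lacks E-boxes. The Ciart promoter (chr3:95882179-95882478, minus strand) and, for comparison, that of Dbp are shown here 5′ to 3′ with E-boxes in capitals. These 2 genes were chosen because they varied most between the livers.
Ciart: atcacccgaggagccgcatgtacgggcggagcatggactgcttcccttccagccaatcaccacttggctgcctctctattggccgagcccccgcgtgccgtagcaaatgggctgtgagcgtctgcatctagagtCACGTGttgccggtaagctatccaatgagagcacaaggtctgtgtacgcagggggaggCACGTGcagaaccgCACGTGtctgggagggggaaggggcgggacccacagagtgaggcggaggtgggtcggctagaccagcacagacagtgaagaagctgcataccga
Dbp: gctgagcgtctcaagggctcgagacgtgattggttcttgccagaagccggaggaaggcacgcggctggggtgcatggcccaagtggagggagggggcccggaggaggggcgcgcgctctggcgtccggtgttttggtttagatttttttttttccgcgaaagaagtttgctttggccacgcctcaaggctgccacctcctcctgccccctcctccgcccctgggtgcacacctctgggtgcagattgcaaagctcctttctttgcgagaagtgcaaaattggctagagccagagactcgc

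Single motifs in the other promoters are shown as short windows, with the motif in capitals. Both Tef start sites (chr15:81802423-81802722 and chr15:81811164-81811463, plus strand) had an E-box, starting 127 and 138 bases upstream, and the one of Bhlhe41 (chr6:145865371-145865670, minus strand) started 153 bases upstream. The promoter of Hlf (chr11:90390868-90391167, minus strand) held the cyclic AMP response element TGACGTCA 9 bases upstream, which 1.79% of all promoters hold. That of Nfil3 (chr13:52980990-52981289, minus strand) held TGACCTA, the reverse complement of TAGGTCA, 12 bases upstream. TAGGTCA and TGGGTCA are core letters of the element bound by ROR and REV-ERB receptors, and 6.45% of all promoters hold either on at least 1 strand. None of the 6 matched genes had the D-box letters TTATGTAA or TTACGTAA (1.06% of all promoters), CACGTT (4.69%) or the forkhead letters GTAAACA (3.65%) in these windows, on either strand.
Tef, first start site: gtggctcCACGTGctgcagc
Tef, second start site: ggcccagCACGTGtctacat
Bhlhe41: cgttccgCACGTGagctggg
Hlf: cgggcccTGACGTCActcttgt
Nfil3: tcggaacTGACCTActaacac

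Expression is given below in CPM, which are read counts brought to equal library size with TMM factors, and log2 fold changes are IR insulin over IR vehicle. Livers are numbered by replicate within their group. The libraries held 18449986 to 21827619 counts. Between libraries, log2 CPM correlated across genes with a Pearson's r from 0.980 to 0.985 between the insulin libraries and from 0.878 to 0.948 between the vehicle libraries, with vehicle livers 2 and 3 standing apart. In vehicle liver 2, transcripts of high GC content were depleted: log2 CPM moved by −1.13 for each 10 points of GC percentage, against −0.0637 to 0.188 in the other libraries. Values for the members are therefore also given after an offset for GC content, or without these libraries, where that matters. All 10 hepatocyte markers were detected, with a summed level of 183200 CPM in vehicle liver 2 and 67603 to 120870 CPM elsewhere. Markers of the exocrine pancreas (5 of 5) had no count in any library, and of 3 adipocyte markers Lep was at 0 and the summed level was at most 0.0529 CPM. The neutrophil list (6 genes) summed to 3.62 CPM in vehicle liver 3 and to 28.0 to 74.1 CPM elsewhere. The erythroid list (6 genes, 5 tested) summed to 627, 1588 and 413 CPM in vehicle livers 1, 2 and 3. With insulin it came to 312 to 478 CPM. Of its tested genes, 4 had an unadjusted p under 0.05 (edgeR), a level that 2.86% of all genes reached. The B cell list (6 genes, 3 tested, 1 at such a p) summed to 12.2 CPM in vehicle liver 2 and 2.12 to 4.73 CPM elsewhere. The lists for T and NK cells (11 genes, 3.55 to 6.03 CPM), Kupffer cells (10 genes, 299 to 750 CPM), sinusoidal endothelial cells (6 genes, 161 to 259 CPM), stellate cells (6 genes, 131 to 238 CPM) and bile duct cells (5 genes, 19.8 to 50.8 CPM) overlapped between the groups. These are bulk livers, in which fewer cells of a type and less RNA per cell cannot be told apart. The part of other cell types in the results below was not tested.

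No member differed with insulin at an adjusted p under 0.05 (Benjamini-Hochberg over 13377 genes, quasi-likelihood test of edgeR), a level reached by 0% of all genes tested. Nfil3 had the smallest p of the members (unadjusted p 0.0324, adjusted p 0.852), and it was the 1 member of 7 at an unadjusted p under 0.05, a level that 2.86% of all genes reached. Nfil3 and Hlf, 2 of the 7, were lower in every insulin-treated liver than in every vehicle-treated one, a separation seen in 12.3% of all genes in either direction. The other 5 overlapped between the groups. The median log2 fold change of the 7 was −0.25 (5 lower and 2 higher with insulin), and that of all genes tested was −0.017. DESeq2 also called no member at an adjusted p under 0.05 and 1 at an unadjusted p under 0.05.

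**Figure D1:**
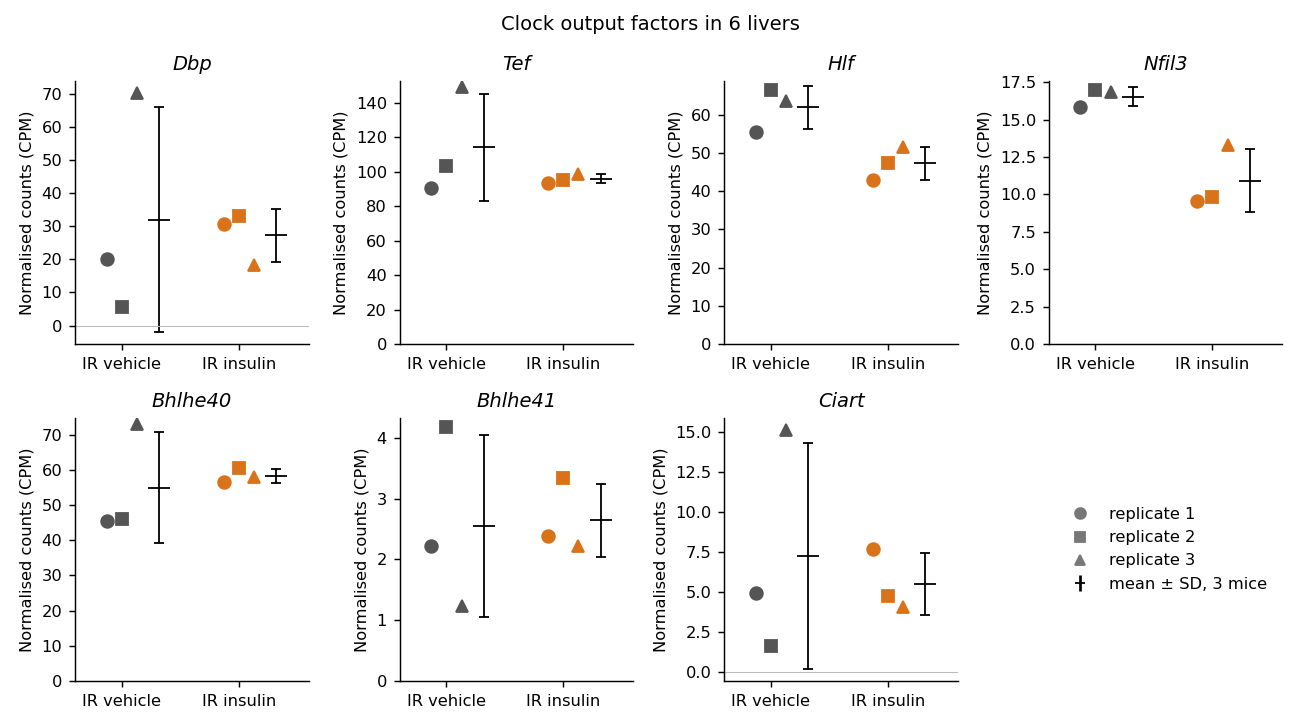
CPM of each member (y axis, from 0) in the 3 IR vehicle livers (grey) and the 3 IR insulin livers (orange), with the replicate number given by the symbol and the mean ± SD beside the points. Nfil3 and Hlf separate the groups, whereas Dbp and Ciart span 12.6-fold and 9.47-fold among the vehicle livers alone.

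On a scale corrected for length (CPM per kilobase of the gene's longest annotated transcript), Tef was the most abundant member, at a mean of 23.9 ± 5.02 (SD over 6 livers). Bhlhe40 followed at 18.2 ± 3.29, Dbp at 16.1 ± 12.1, Hlf at 9.67 ± 1.63, Nfil3 at 6.77 ± 1.66, Ciart at 3.27 ± 2.43 and Bhlhe41 at 0.423 ± 0.166. Tef exceeded Bhlhe40 within each of the 6 livers. Bhlhe40 exceeded Dbp in 5 of 6, and Dbp exceeded Hlf in 5 of 6, so the place of Dbp in this order was not fixed. It was, without the GC offset, above Tef in vehicle liver 3 (38.2 against 33.9) and below Nfil3 in vehicle liver 2 (3.04 against 8.36). The order from Hlf down to Bhlhe41 held in all livers for each pair of neighbours.

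Dbp encodes D-box binding protein, whose transcript has one of the widest daily swings in liver. It lies on chromosome 7 (45705088 to 45710203, plus strand, build 38). Its expression was 19.9, 5.59 and 70.2 CPM in vehicle livers 1, 2 and 3 (377, 91 and 1471 counts), and 30.6, 33.0 and 18.1 CPM in insulin livers 1, 2 and 3. The vehicle livers thus held both the lowest and the highest value, and all insulin values fell between them. The vehicle spread of 12.6-fold was matched or exceeded by 2.0% of the genes tested, and the insulin spread of 1.82-fold by 13.6%. Means were 31.9 ± 33.9 CPM with vehicle and 27.2 ± 7.97 CPM with insulin (SD, n = 3). Insulin over vehicle came to −0.23 ± 0.75 (log2, SE), with a 95% interval of −1.96 to 1.50 and an adjusted p of 0.939 (edgeR). Changes in either direction within this interval were not excluded with these mice. Leaving out vehicle liver 3 turned the log2 fold change to 1.09, and leaving out vehicle liver 2 moved it to −0.72. Neither value reached an unadjusted p under 0.05 (0.0854 and 0.189, edgeR).

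Part of the low Dbp value went with GC content. The longest Dbp transcript is 61.6% GC, the highest of the 7 members (45.1 to 54.5% in the other 6), and after the GC offset the level in vehicle liver 2 was 15.6 CPM in place of 5.59. The vehicle spread then came to 3.57-fold, from 15.6 to 55.7 CPM, with vehicle liver 3 still the highest of the 6 livers. Insulin liver 3 became the lowest, at 13.8 CPM. With the offset, the log2 fold change was −0.47 (unadjusted p 0.365). Sphk2 (the gene of a sphingosine kinase) overlaps Dbp in antisense orientation, and no source states whether counting took strand into account. Sphk2 was at 16.4 CPM in vehicle liver 2, its lowest, and at 61.6 CPM in vehicle liver 3, but its highest value was 72.7 CPM in insulin liver 1, where Dbp was at 30.6 CPM.

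Tef and Hlf, the other PAR bZIP genes, were much steadier than Dbp. Tef (thyrotroph embryonic factor, chromosome 15, 81802421 to 81826863, plus strand) was at 90.5, 103 and 149 CPM in vehicle livers 1, 2 and 3 and at 93.7, 95.2 and 98.7 CPM in the insulin livers. Before the GC offset, vehicle liver 3 stood above the rest, and the other 5 livers lay within 90.5 to 103 CPM. After the offset, vehicle livers 2 and 3 were at 143 and 141 CPM, against 85.3 to 90.7 CPM elsewhere. The log2 fold change of Tef was −0.25 ± 0.25 (SE, 95% interval −0.83 to 0.32, adjusted p 0.853 by edgeR), and it was −0.014 without vehicle liver 3. With the GC offset it was −0.48 (unadjusted p 0.0654, edgeR), and −0.38 with the offset and vehicle liver 3 left out. In the insulin livers the highest Tef value was 1.05 times the lowest, a spread that 95.3% of the genes tested matched or exceeded.

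Hlf (hepatic leukemia factor, chromosome 11, 90336536 to 90390895, minus strand) was lower in every insulin-treated liver than in every vehicle-treated one before the GC offset. It was at 55.5, 66.4 and 63.7 CPM in vehicle livers 1, 2 and 3, and at 42.8, 47.4 and 51.6 CPM in insulin livers 1, 2 and 3. The means were 61.9 ± 5.67 and 47.2 ± 4.38 CPM (SD, n = 3). Hlf thus differed by −0.39 ± 0.20 (log2 fold change, SE, 95% interval −0.86 to 0.082), which did not pass the test (unadjusted p 0.0932, adjusted p 0.852, edgeR). It was negative in all alternatives, from −0.46 to −0.15. After the GC offset the groups overlapped, since vehicle liver 2 (53.6 CPM) fell below insulin liver 3 (54.7 CPM), and the log2 fold change was −0.27.

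Within the PAR bZIP pool, taken without the GC offset, the share of Dbp ranged most widely between livers. Summed per kilobase, the 3 transcripts came to 83.4 in vehicle liver 3 and to 38.2 to 48.0 in the other 5 livers. Dbp supplied 45.8% of that sum in vehicle liver 3 and 7.96% in vehicle liver 2, with 26.3% in vehicle liver 1 and 23.8 to 37.4% in the insulin livers. Tef supplied 40.7 to 61.2% and Hlf 13.5 to 30.8%. Vehicle liver 1 and the 3 insulin livers were close to each other in this makeup. In vehicle liver 2 the GC offset moved Dbp from 5.59 to 15.6 CPM, Tef from 103 to 143 CPM and Hlf from 66.4 to 53.6 CPM. The sum and shares given for vehicle liver 2 therefore depend on its GC bias, and they were not recomputed.

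Nfil3, the D-box repressor, had the smallest p of the members. It lies on chromosome 13 (52967209 to 52981073, minus strand) and has no annotated gene overlapping it. Nfil3 stood at 15.8, 16.9 and 16.8 CPM in vehicle livers 1, 2 and 3 (299, 276 and 353 counts), and 9.59, 9.83 and 13.3 CPM in insulin livers 1, 2 and 3 (213, 227 and 289 counts). All insulin values lay below all vehicle values, with insulin liver 3 the nearest to the vehicle group. Before the GC offset, the 3 vehicle livers agreed within 1.07-fold for Nfil3, a spread that 99.0% of the genes tested matched or exceeded. The same livers differed 12.6-fold in Dbp. After the offset these vehicle spreads were 1.73-fold for Nfil3 and 3.57-fold for Dbp. Means were 16.5 ± 0.626 and 10.9 ± 2.09 CPM (SD, n = 3), and the log2 fold change was −0.60 ± 0.23 (SE, 95% interval −1.13 to −0.065). The unadjusted p of 0.0324 came to an adjusted p of 0.852 over all genes (edgeR), so this difference did not pass the correction.

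The direction of Nfil3 was the same in all 16 alternatives, with log2 fold changes from −1.07 to −0.51 and adjusted p values from 0.506 to 0.9998. With the GC offset it was −0.94 (unadjusted p 0.00814), where vehicle liver 2 rose to 26.2 CPM and the groups still did not overlap (15.2 to 26.2 CPM with vehicle and 8.52 to 11.8 CPM with insulin). Leaving out vehicle liver 2 gave −0.58 (unadjusted p 0.0215) and leaving out vehicle liver 3 gave −0.59 (unadjusted p 0.0537). Without insulin liver 1 or 2 the unadjusted p was 0.136 or 0.129, and it was 0.0533 without vehicle liver 1. T and NK cells also express Nfil3, and the summed level of their 11 markers was 4.10 to 5.29 CPM with vehicle and 3.55 to 6.03 CPM with insulin, without separation of the groups.

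**Figure D2:**
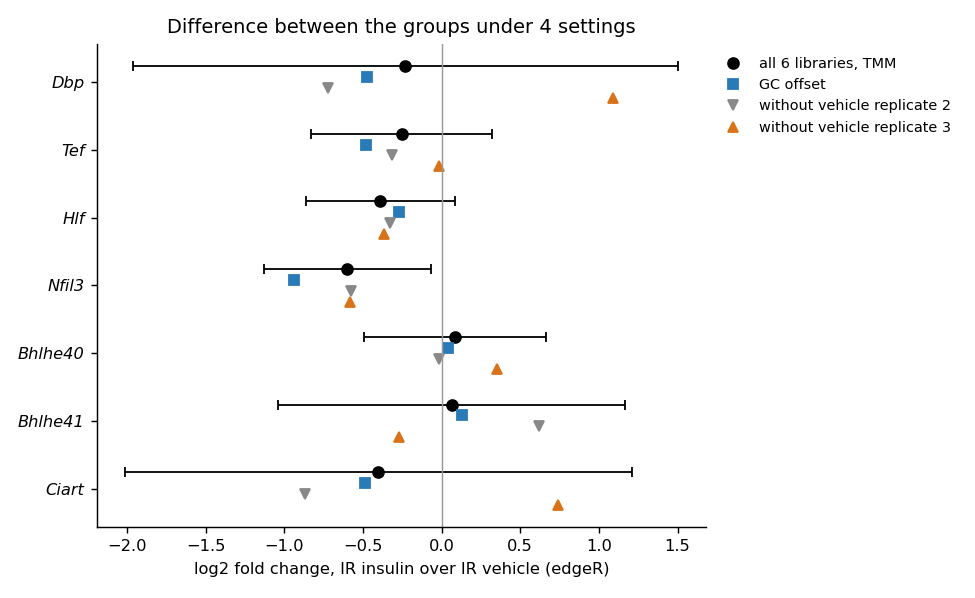
Log2 fold change of each member (x axis, IR insulin over IR vehicle) from the edgeR fit of all 6 libraries (black, with its 95% interval), with a GC offset (blue), and without vehicle liver 2 (grey) or 3 (orange). Nfil3, Hlf and Tef stay below 0 in all 4 fits, Tef at −0.014 without vehicle liver 3, while Dbp, Ciart, Bhlhe40 and Bhlhe41 change sign according to which vehicle liver is left out.

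The repressors Bhlhe40 and Bhlhe41 showed no difference beyond the spread between mice. Bhlhe40 (chromosome 6, 108660629 to 108666925, plus strand) was at 45.5, 46.1 and 73.1 CPM in vehicle livers 1, 2 and 3, and at 56.5, 60.4 and 58.1 CPM in the insulin livers. Vehicle liver 3 was the highest of the 6 livers, and all insulin values were above the other vehicle values. Bhlhe40 thus had a log2 fold change of 0.087 ± 0.25 (SE, 95% interval −0.49 to 0.67, adjusted p 0.933 by edgeR). Without vehicle liver 3 it was 0.35 (unadjusted p 0.121), and without vehicle liver 2 it was −0.018. With both vehicle livers 2 and 3 left out it was 0.37 (unadjusted p 0.0397), in a fit where the 1 vehicle liver left was assumed to vary like the insulin livers.

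Bhlhe41 (chromosome 6, 145858243 to 145865558, minus strand) was the least expressed member, with 26 to 77 counts per library. It was at 2.22, 4.17 and 1.24 CPM in vehicle livers 1, 2 and 3, and at 2.39, 3.33 and 2.21 CPM in the insulin livers. Its order ran against that of Dbp among the vehicle livers, with replicate 2 highest and replicate 3 lowest. For Bhlhe41 the log2 fold change was 0.064 ± 0.48 (SE, 95% interval −1.04 to 1.17), with an adjusted p of 0.974 (edgeR). Leaving out vehicle liver 2 gave 0.62 and leaving out vehicle liver 3 gave −0.27.

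Ciart, the gene with 3 E-boxes in its promoter, followed Dbp in its extremes before the GC offset. It lies on chromosome 3 (95878503 to 95882251, minus strand). Its expression was 4.92, 1.60 and 15.1 CPM in vehicle livers 1, 2 and 3 (93, 26 and 317 counts), and 7.65, 4.72 and 4.06 CPM in insulin livers 1, 2 and 3. Vehicle liver 3 was again the highest and vehicle liver 2 the lowest of the 6 livers. The vehicle spread of 9.47-fold was matched or exceeded by 3.81% of the genes tested and, at 52.2% GC, it remained 7.07-fold after the GC offset. For Ciart the log2 fold change was −0.40 ± 0.70 (SE, 95% interval −2.01 to 1.21, adjusted p 0.886 by edgeR). Leaving out vehicle liver 3 gave 0.74 and leaving out vehicle liver 2 gave −0.87.

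**Figure D3:**
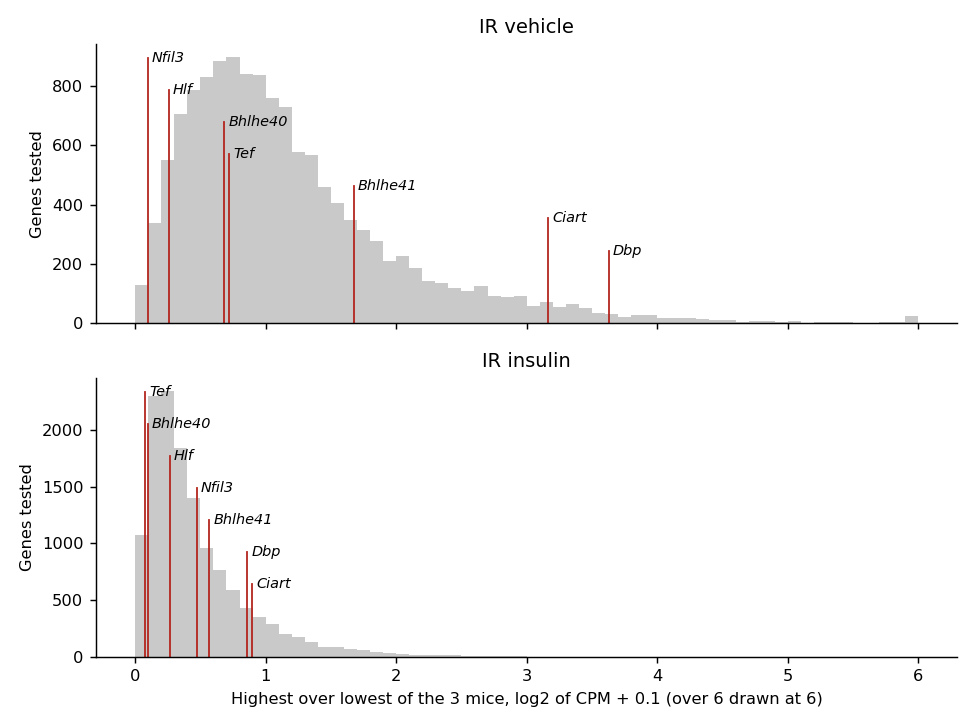
Histograms of the spread within each group over all 13377 genes tested (x axis, log2 of the highest over the lowest of 3 mice after adding 0.1 CPM), with the 7 members marked by red lines whose heights carry no value. In these values without the GC offset, Dbp and Ciart lie in the upper tail among IR vehicle livers, and Nfil3 lies at the lower end. The median gene spans 0.99 with vehicle and 0.35 with insulin.

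Genes of the core loop were read beside their outputs. Of 15 listed, 14 passed the filter, of which 8 were higher and 6 lower with insulin, with a median log2 fold change of 0.098. Npas2 did not pass, with at most 0.246 CPM in any liver. None passed an adjusted p of 0.05, and 1 had an unadjusted p under 0.05, a level that 2.86% of all genes tested reached. It was Rora, which encodes the activating receptor RORα. Its log2 fold change was −0.79 ± 0.32 (SE, unadjusted p 0.0414, adjusted p 0.852 by edgeR), and its groups overlapped, with 31.7 to 39.9 CPM after insulin and 38.2, 89.8 and 56.6 CPM in vehicle livers 1, 2 and 3. Without vehicle liver 2 the log2 fold change of Rora was −0.41 (unadjusted p 0.0848, edgeR), and without vehicle liver 1 it was −1.04 (unadjusted p 0.00930). Without vehicle liver 3 or any 1 of the insulin livers its unadjusted p was 0.0512 to 0.127. Rora has a GC content of 40.9%. With the GC offset, vehicle liver 2 was at 60.1 CPM and the log2 fold change was −0.49 (unadjusted p 0.0740, edgeR).

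Per2, a repressor of the loop, was the 1 listed core gene whose groups did not overlap, a separation seen in 12.3% of all genes tested. It was at 15.7, 11.7 and 12.2 CPM in vehicle livers 1, 2 and 3, and at 15.8, 17.8 and 26.4 CPM in insulin livers 1, 2 and 3. Insulin liver 1 and vehicle liver 1 were almost level. The log2 fold change was 0.60 ± 0.27 (SE, unadjusted p 0.0599, adjusted p 0.852 by edgeR). With the GC offset it was 0.30 and the groups overlapped. Per1, its paralog, was at 14.6, 3.62 and 34.0 CPM in the vehicle livers and at 25.1, 17.1 and 28.4 CPM in the insulin livers, with a log2 fold change of 0.43 ± 0.65, which was −0.044 without vehicle liver 2 and 1.36 without vehicle liver 3 (unadjusted p 0.0475).

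Nr1d1, which encodes REV-ERBα and is driven through E-boxes, shared the extremes of Dbp and Ciart before the GC offset. It was at 14.0, 4.91 and 44.2 CPM in vehicle livers 1, 2 and 3, and at 17.7, 13.1 and 10.9 CPM in the insulin livers. Its order over the 6 livers was that of Ciart. After the offset, Nr1d1 was still highest in vehicle liver 3, at 38.7 CPM. Vehicle liver 2 (9.18 CPM) and insulin liver 3 (9.20 CPM) were then almost level. Arntl, the gene of BMAL1, had its lowest value where these genes had their highest, at 4.28, 2.76 and 1.19 CPM in vehicle livers 1, 2 and 3, and at 3.83, 3.07 and 4.34 CPM in the insulin livers. The log2 ratio of Dbp to Arntl, without the GC offset, was accordingly 5.88 in vehicle liver 3, against 1.02 in vehicle liver 2 and 2.06 to 3.42 in the other 4 livers. In vehicle liver 2 the offset moved Dbp from 5.59 to 15.6 CPM and Arntl from 2.76 to 2.65 CPM. The low ratio in that liver therefore depends on its GC bias. Log2 fold changes were −0.60 ± 0.67 (SE) for Nr1d1 and 0.45 ± 0.47 for Arntl. Without vehicle liver 3 they were 0.55 for Nr1d1 and 0.085 for Arntl, without vehicle liver 2 Nr1d1 was at −1.06 (unadjusted p 0.0482), and without vehicle liver 1 Arntl was at 0.93. Among the remaining loop genes there were log2 fold changes of −0.38 ± 0.33 for Clock, −0.71 ± 0.34 for Nr1d2 (REV-ERBβ), −0.077 ± 0.42 for Cry1, 0.22 ± 0.21 for Cry2 and 0.049 ± 0.24 for Per3. None of these had an unadjusted p under 0.05 (edgeR). Without vehicle liver 2, Nr1d2 was at −0.30 and Clock at 0.075, and without vehicle liver 1, Nr1d2 was at −0.96 (unadjusted p 0.0157, edgeR). With the GC offset, Nr1d2 (41.8% GC) was at −0.43 and Clock (40.9% GC) at −0.043.

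**Figure D4:**
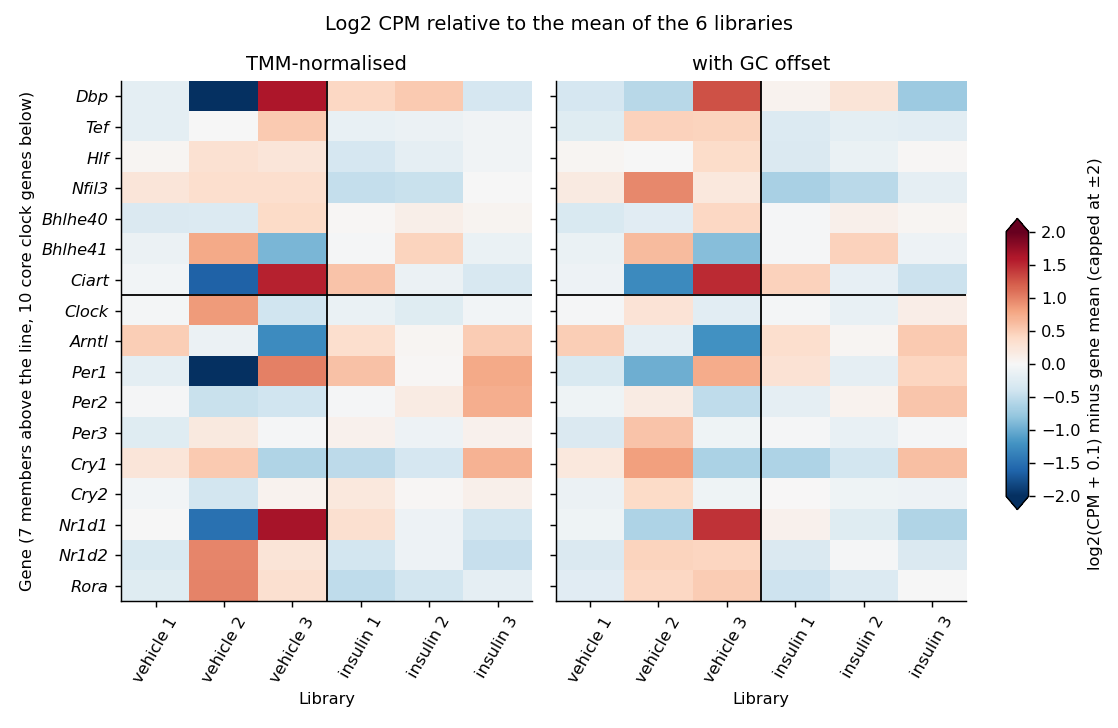
Heat map of log2(CPM + 0.1) minus each gene's mean over the 6 libraries (columns), for the 7 members and 10 core clock genes (rows), from TMM-normalised counts (left) and after the GC offset (right). Colours are capped at ±2. Dbp, Ciart, Per1 and Nr1d1 are highest and Arntl is lowest in vehicle liver 3 in both panels, whereas the low values of Dbp, Per1 and Nr1d1 in vehicle liver 2 shrink with the offset.

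Genes that the output factors are known to act on, or that follow the liver clock, did not separate the groups. Of 14 listed, 13 passed the filter, and 5 were higher and 8 lower with insulin, with a median log2 fold change of −0.23. By edgeR, 0 of them had an unadjusted p under 0.05 (2.86% of all genes tested), against 1 by DESeq2 (2.38% of all genes). The 4 with the smallest p were Cyp2c50 (a cytochrome P450), at −0.59 ± 0.29 (SE, unadjusted p 0.0763), Cyp2b10 (a P450 induced through the receptor CAR), at −1.50 ± 0.83, Cyp7a1 (the first enzyme of bile acid synthesis), at −1.12 ± 0.81, and Pdxk (pyridoxal kinase), at 0.30 ± 0.23. Cyp2b10 was highest in vehicle liver 3, like Dbp, at 14.7 CPM against 1.08 to 4.01 CPM in the other 5 livers, and without that liver its log2 fold change was −0.15. Cyp7a1 ran the other way, at 31.4 CPM in vehicle liver 3, 508 CPM in vehicle liver 2 and 80.2 to 157 CPM elsewhere, and its log2 fold change was 0.18 without vehicle liver 2 and −1.64 without vehicle liver 3 (unadjusted p 0.0135). Without vehicle liver 2, Cyp2c50 was at −0.33 and Cyp2b10 at −1.97 (unadjusted p 0.0212, edgeR). Cyp7a1 and Cyp2c50 have a low GC content (39.7% and 37.4%), and their values in vehicle liver 2 depend on its GC bias. With the GC offset, Cyp7a1 was at 325 CPM in that liver, still its highest, and its log2 fold change was −0.55. That of Cyp2c50 was −0.24 and that of Cyp2b10 −1.57.

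Transcripts known to answer to insulin or fasting give the context of the treatment. Of 12 listed, 11 passed the filter, 5 higher and 6 lower, with a median log2 fold change of −0.10. None passed an adjusted p of 0.05 and 1 had an unadjusted p under 0.05, a level that 2.86% of all genes tested reached. It was Fgf21, the gene of a hepatokine that NFIL3 is known to repress. Fgf21 was at 6.66, 2.70 and 5.87 CPM in vehicle livers 1, 2 and 3, and at 9.91, 8.49 and 13.1 CPM in the insulin livers. The groups did not overlap, as in 12.3% of all genes tested. The log2 fold change of Fgf21 was 1.04 ± 0.38 (SE, unadjusted p 0.0247, adjusted p 0.852 by edgeR), and without insulin liver 3 it was 0.86 (unadjusted p 0.0953). The gluconeogenic genes G6pc and Pck1 were at −1.14 ± 0.52 and −0.93 ± 0.54, and Ppargc1a, a coactivator of gluconeogenesis, at −0.67 ± 0.43. Without vehicle liver 3, G6pc was at −0.34, Pck1 at −0.31 and Ppargc1a at −0.17. All 3 were highest in vehicle liver 3, the liver with the highest Dbp, Ciart, Tef and Bhlhe40 before the GC offset. Igfbp1, which insulin is known to lower, reached 266 CPM in that liver, against 3.99 to 60.2 CPM in the other 5.

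The genes most like each member over the 6 livers were named by Pearson's r of log2 CPM, among genes with a mean of at least 5 CPM. With so few livers this is a description only, and 211 of 9178 such genes had an r over 0.95 with Dbp, 156 with Ciart and 8 with Nfil3. Nearest to Dbp were Zc3h13 (r 0.997) and Upb1 (0.996), to Ciart Ctsf (0.997) and Ndufa6 (0.995), and to Tef Hrg (0.992) and Ptprb (0.991). For Hlf they were Fmo5 (0.984) and E2f5 (0.981), for Bhlhe40 Rdh11 (0.983) and Zbtb39 (0.979), and for Bhlhe41 Ss18 (0.997) and Polr2d (0.996). Nearest to Nfil3 were Tle4 (0.991) and Gpat3 (0.988).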

How the data were processed

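Liver RNA of 6 mice was sequenced by the authors, who prepared libraries with the NEBNext Ultra RNA kit and aligned reads with Bowtie 2 (2.2.3, per the labels) to mouse build 38. The authors deposited raw read counts per gene for each library. Bowtie 2 does not align across splice junctions, so transcripts with many short exons may be undercounted. The counting program, annotation release and strand setting are not given in the sources used here. Reads of Tef, Bhlhe40, Bhlhe41, Ciart and Dbp, which each overlap a gene on the opposite strand, may therefore include reads of that gene. Those genes held 2 to 41 counts in all 6 libraries together, except Sphk2. Gene positions, transcript lengths and GC content were taken from GENCODE release 21 for mouse, which held 54495 of the 54532 genes.

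Groups and replicate numbers came from the sample titles, with 1 library per mouse. Counts were normalised by TMM, filtered with filterByExpr (minimum count 10, minimum total 15) and tested with the quasi-likelihood test of edgeR 4.0.16 (R 4.3.3) without covariates. P values were adjusted by Benjamini-Hochberg over 13377 genes. SEs and 95% intervals were derived from the F statistic. With 3 against 3 mice, the smallest two-sided p of an exact permutation test is 0.1, so none was run. One count was worth 0.0433 to 0.0614 CPM. The authors had used DESeq2, run here (1.42.0) as an alternative beside RLE and upper-quartile factors, no filter, voom (limma 3.58.1), a loess GC offset (span 0.5), a replicate block and leaving out each library. The scripts were tested on simulated data. The members and gene lists were chosen with earlier results of these data known. Named were all members, the core loop genes (1 is not reported here by name), the 4 genes with the smallest p of each other list, and for each member the 2 genes with the most similar profile. Sphk2, Igfbp1 and Npas2 were named after their values were seen.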

Additional observations from a re-analysis of the deposited data

How the results depend on the processing

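No member or listed gene passed an adjusted p of 0.05 under any of 14 other settings or 2 more chosen after seeing the data, and Nfil3 and Hlf kept their direction in all 16. The median of the 7 members, −0.25, was −0.46 to −0.014 when 1 library was left out, 0.11 with the replicate block and 0.16 with vehicle replicates 2 and 3 both left out. At an unadjusted p under 0.05, the count of members (1 in the main comparison) was 0 without a filter and with the replicate block, and 0 to 1 with 1 library left out (0 without vehicle replicate 1 or 3 or insulin replicate 1 or 2). Over all genes tested, the share at that p was 2.86% in the main comparison, 1.59% with voom to 3.55% with the GC offset in the other fits of all 6 libraries, 9.81%, 3.74% and 6.51% without vehicle replicates 1, 2 and 3, 0.727%, 1.05% and 0.875% without insulin replicates 1, 2 and 3, 2.17% without both vehicle libraries and 5.24% with the GC offset without vehicle replicate 3. The counts of 1 to 4 listed genes are not comparable across settings for that reason. For core clock genes (1) it was 2 with upper-quartile factors, 0 with voom, the GC offset, the replicate block, the block with the GC offset, and without both vehicle libraries, and 0 to 2 with 1 library left out (2 without vehicle replicate 1, 0 without any 1 of the insulin libraries). For D-box targets (0) it was 1 by DESeq2, voom and the block with the GC offset, 2 without a filter and with the GC offset without vehicle replicate 3, and 0 to 2 with 1 library left out (1 without vehicle replicate 1 or 2, 2 without vehicle replicate 3). For insulin and fasting genes (1) it was 2 by DESeq2, without a filter and with the GC offset, 3 with the replicate block, 4 with the block and GC offset, 0 without both vehicle libraries, and 1 to 4 with 1 library left out (3 without vehicle replicate 1, 4 without vehicle replicate 2, 2 without insulin replicate 3).

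Signs turned as follows; the cause was not tested. With 1 library left out, log2 fold changes ran from −0.72 to 1.09 for Dbp, −0.029 to 0.35 for Bhlhe40, −0.27 to 0.62 for Bhlhe41, −0.87 to 0.74 for Ciart, −0.61 to 0.075 for Clock, −0.044 to 1.36 for Per1, −0.050 to 0.17 for Per3, −0.54 to 0.17 for Cry1, −1.06 to 0.55 for Nr1d1 and −1.64 to 0.18 for Cyp7a1. With voom Dbp was 0.22. With the replicate block Dbp was 0.43 and Ciart 0.11. With the GC offset Per3 was −0.17 and Cry2 −0.13, and with the block added −0.13 and −0.12. With the GC offset and vehicle replicate 3 left out, Dbp was 0.36, Bhlhe41 −0.18, Ciart 0.56, Per3 −0.27, Cry2 −0.21, Nr1d1 0.089, Pdxk −0.058 and Ppargc1a 0.22. Without both vehicle libraries, Dbp was 0.46, Tef 0.089, Ciart 0.16, Arntl −0.19, Nr1d2 0.010, Pck1 0.076 and Ppargc1a 0.13.

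Whether replicate numbers paired the livers could not be decided with 3 mice per group. Deviations of same-numbered libraries correlated at −0.039, 0.069 and 0.017. The replicate 2 libraries were each other's closest match, and those of replicates 1 and 3 were not. The block left 321 genes at an unadjusted p under 0.05 (edgeR) against 383, in a fit with fewer residual degrees of freedom. The lowest counts of a member in a library were 26 for Bhlhe41 (vehicle replicate 3) and 26 for Ciart (vehicle replicate 2), and among other named genes Arntl had 25 and Cyp2b10 had 23. The parts of depth and of group size were not tested.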
